A study of Mus musculus with 12 samples.

Results

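Osteoclasts dissolve bone by fusing into large cells, sealing an area of bone, acidifying it and secreting enzymes into it. The 10 genes described here carry out those last steps, and were taken by symbol from the 55291 rows of a count table of mouse bone marrow RNA. Acp5, Ctsk and Mmp9 encode secreted enzymes, Tcirg1, Atp6v0d2, Clcn7 and Ostm1 belong to acid secretion, Dcstamp and Ocstamp to cell fusion, and Calcr encodes the calcitonin receptor of mature osteoclasts.

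Bulk RNA-seq counts were available for non-adherent marrow cells of mice about 8 weeks old, cultured for about 24 hours in alpha-MEM. There were 4 groups of 3 libraries: homozygous untreated, control untreated, homozygous SCFA and control SCFA. Homozygous mice are labelled STAT3Cstopfl/fl CD4Cre, and the label of homozygous untreated 1 reads R26STAT3Cstopfl/fl CD4Cre; the control genotype is labelled only as control. SCFA mice were given short-chain fatty acids, products of gut bacteria, in their drinking water, and the other groups were untreated. STAT3C is a constitutively active form of the transcription factor STAT3, kept silent by a stop cassette until Cre removes it. The CD4 promoter drives Cre mainly in T cells, whose 8 markers summed to 49.4 to 57.7 reads per 1e6 counts of the library (CPM) in homozygous untreated, 73.6 to 85.4 in control untreated, 50.6 to 54.6 in homozygous SCFA and 52.7 to 71.5 in control SCFA libraries. Nothing in the labels states that replicates are separate mice, so p-values measure only the spread between these libraries, which may be technical. Codes in the labels that read as dates differ between untreated and SCFA libraries, so treatment and that code cannot be told apart, while both genotypes occur within each.

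Osteoclasts arise from myeloid precursors exposed to M-CSF and RANKL, a ligand of the receptor RANK. RANKL signalling raises the transcription factor NFATc1, which switches on the fusion and resorption genes late in differentiation. Several of these genes also work elsewhere: MMP-9 is stored in neutrophil granules, and TCIRG1, CLC-7 and OSTM1 serve lysosomes and secretory compartments of many cells.

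Library totals were 16954355 to 20748995 counts. A gene with 0 counts may have had up to 0.145 to 0.177 CPM in a library, the level of 3 counts; this covers counting error only. The 13 late neutrophil markers summed to 54045 to 70313 CPM in homozygous untreated libraries, 39007 to 54528 in control untreated, 57935 to 66089 in homozygous SCFA and 57949 to 59487 in control SCFA libraries. The 12 macrophage markers summed to 670 to 731, 642 to 700.1, 962 to 1044 and 739 to 771 CPM in the same order of groups. Both marker lists were thus present in every library. In such bulk samples, fewer cells of a type and less RNA per cell cannot be told apart.

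The cell fusion genes and Calcr were barely expressed, defined as a mean under 1 CPM in each of the 4 groups. Dcstamp encodes DC-STAMP, a membrane protein that osteoclast precursors need for fusion. Its counts were 4, 1 and 7 in homozygous untreated libraries and 0, 0 and 7 in control untreated libraries. Under SCFA they were 0, 11 and 0 in homozygous mice and 9, 10 and 0 in control mice. No group stood apart from another, and 5 of the 12 libraries held no Dcstamp read.

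Ocstamp encodes OC-STAMP, a related membrane protein of fusion. It had 1, 3 and 7 counts in homozygous untreated libraries and 0, 0 and 0 in control untreated libraries. Under SCFA it had 4, 4 and 11 counts in homozygous mice and 4, 0 and 6 in control mice. With counts pooled over a group and 3 counts put in place of 0, Ocstamp was 3.24-fold higher in homozygous untreated than in control untreated libraries, on 11 against 0 counts. It was likewise 3.01-fold higher in control SCFA than in control untreated libraries, on 10 against 0 counts. These ratios take the counts of the higher group as exact and leave out the spread between libraries, so they are no lower limits. Neither difference passed when genes with low counts were kept in the test (adjusted p = 0.111 and 0.105). Calcr had 1, 0 and 0 counts in homozygous untreated and 4, 0 and 0 in homozygous SCFA libraries, and 0 in all control libraries of either treatment.

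Ctsk and Atp6v0d2 were detected at low levels. Ctsk encodes cathepsin K, the main collagen-degrading protease of osteoclasts. It had 15, 42 and 16 counts in homozygous untreated libraries and 15, 28 and 34 in control untreated libraries, which overlap. Under SCFA it had 14, 4 and 22 counts in homozygous mice and 52, 37 and 43 in control mice. The SCFA groups did not overlap, but the difference did not pass the test, a Benjamini-Hochberg adjusted p under 0.05 over all genes tested with edgeR (log2 change -1.63, adjusted p = 0.0939). Group means were 1.20, 1.44, 0.720 and 2.26 CPM for homozygous untreated, control untreated, homozygous SCFA and control SCFA libraries. Ctsk was called in none of the 5 comparisons with edgeR; limma-voom called the difference by genotype under SCFA (adjusted p = 0.0332).

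Atp6v0d2 encodes the d2 subunit of the V-ATPase proton pump, which is enriched in osteoclasts and also needed for their fusion. It had 14, 17 and 3 counts in homozygous untreated libraries and 30, 15 and 13 in control untreated libraries. Under SCFA it had 24, 22 and 56 counts in homozygous mice and 67, 26 and 101 in control mice. The log2 change with SCFA was 1.64 in homozygous mice (adjusted p = 0.174) and 1.73 in control mice (adjusted p = 0.0900). Within the homozygous genotype every SCFA library lay above every untreated library, while the control groups overlapped. Atp6v0d2 was likewise called in no comparison, but without control untreated 1 its change in control mice was called (log2 change 2.26, adjusted p = 0.0456).

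**Figure D1:**
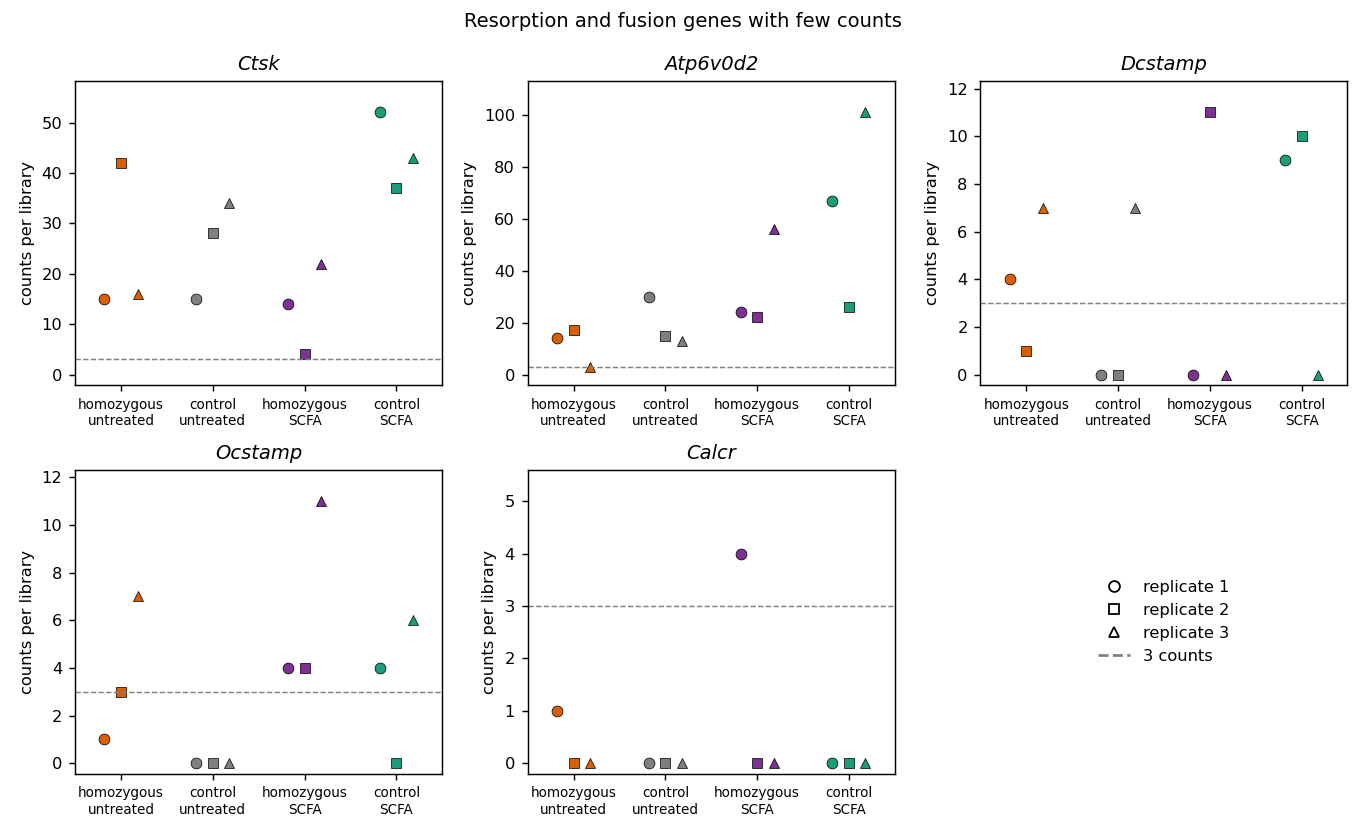
Counts per library of the 5 genes with few counts, by group, with symbols for the 3 replicates and a dashed line at 3 counts. Calcr lies on 0 in 10 of the 12 libraries, and the highest Atp6v0d2 count, 101, is in a control SCFA library.

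Atp6v0d2, Ctsk and Mmp9 lay below the relatives of their families they were set against, and Tcirg1 above them. Levels are compared here as CPM per kilobase of exon, as medians of the 12 libraries. Atp6v0d2 had 0.434, against 38.0 for Atp6v0d1, the d subunit found in most tissues. Ctsk had 0.955, against 28.1 for Ctsl and 1409 for Ctss, the lysosomal cathepsins L and S. Mmp9 had 288, against 1704 for Mmp8, the collagenase of neutrophil granules. Tcirg1, which encodes the a3 subunit of the pump, had 23.1, against 11.6 for Atp6v0a1 and 8.36 for Atp6v0a2, the highest median of the 3. Ostm1 had 20.8, Clcn7 8.56 and Acp5 7.33, while Dcstamp had 0.0477, Ocstamp 0.0464 and Calcr 0.

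**Figure D2:**
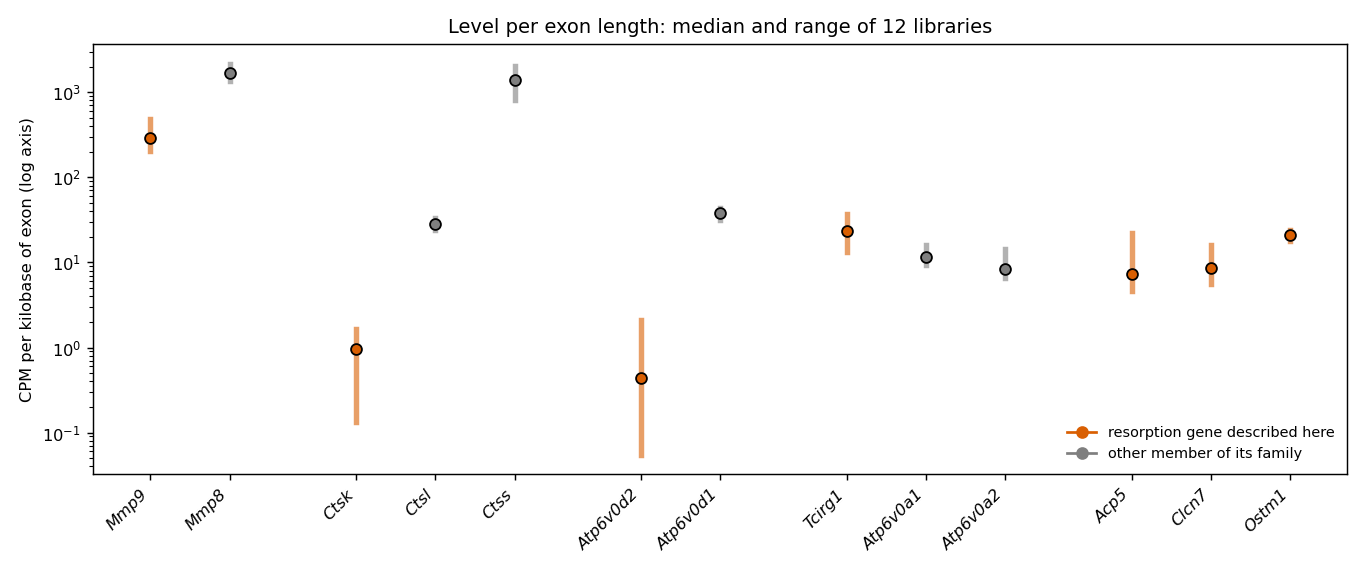
Median (point) and range (bar) over 12 libraries of CPM per kilobase of exon, on a log axis, for resorption genes in orange and other members of their families in grey. Mmp9 at 288 is the highest of the resorption genes drawn, and Atp6v0d2 at 0.434 the lowest; Dcstamp, Ocstamp and Calcr are not drawn.

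Of the 10 genes, 7 had enough counts to be tested: the 5 others with at least 9 CPM in every library, and Ctsk and Atp6v0d2. Dcstamp, Ocstamp and Calcr did not pass the filter. The filter asked for 0.514 CPM in at least 3 libraries, and Dcstamp and Ocstamp reached it in 1 library each and Calcr in 0.

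A promoter each of Clcn7, Tcirg1 and Acp5 is shown, since Acp5 and Tcirg1 passed a test, Clcn7 followed Tcirg1 over the libraries, and each holds a searched motif. Each has 250 bases before and 50 bases after a RefSeq start site (GRCm38.p6), 5′ to 3′ on the gene's strand. Capitals mark CACGTG or TCATGTG, letters bound by MITF and its relatives, and GAGGAA, letters bound by PU.1, with CACATGA and TTCCTC as the same letters read on the other strand. MITF and PU.1 are known regulators of osteoclast genes.
Clcn7 start 1, chr17:25133141-25133440, plus strand: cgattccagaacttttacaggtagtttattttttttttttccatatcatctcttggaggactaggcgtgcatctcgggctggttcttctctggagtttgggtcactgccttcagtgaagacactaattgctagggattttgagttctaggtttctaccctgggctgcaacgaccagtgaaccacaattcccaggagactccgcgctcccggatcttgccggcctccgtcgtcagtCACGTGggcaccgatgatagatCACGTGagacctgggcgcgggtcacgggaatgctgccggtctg
Tcirg1 start 2, chr19:3906934-3907233, minus strand: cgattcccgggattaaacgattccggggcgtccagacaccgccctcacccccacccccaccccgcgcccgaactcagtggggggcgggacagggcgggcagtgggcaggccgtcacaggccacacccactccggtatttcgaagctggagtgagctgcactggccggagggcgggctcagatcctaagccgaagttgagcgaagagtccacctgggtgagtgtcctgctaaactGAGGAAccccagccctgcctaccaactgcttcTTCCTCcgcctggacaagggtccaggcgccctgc
Acp5 start 3, chr9:22130549-22130848, minus strand: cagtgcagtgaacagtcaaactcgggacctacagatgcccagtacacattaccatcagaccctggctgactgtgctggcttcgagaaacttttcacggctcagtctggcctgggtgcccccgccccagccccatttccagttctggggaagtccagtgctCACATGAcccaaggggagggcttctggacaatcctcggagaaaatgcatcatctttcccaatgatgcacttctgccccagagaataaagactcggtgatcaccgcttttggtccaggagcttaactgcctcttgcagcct
CACGTG occurs in 7.15%, TCATGTG in 3.77% and GAGGAA in 28.3% of the 32851 mouse promoters in the table. The table held 12 start sites of 6 of the 10 genes, and none of Mmp9. Among these 12 windows CACGTG was in 1, TCATGTG in 2 and GAGGAA in 2, and the AP-1 letters TGANTCA, found in 7.81% of all promoters, in 0. The start sites of Acp5 and Tcirg1 that are not shown held none of the searched motifs. A match describes the letters only.

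Without SCFA, Acp5 and Mmp9 were lower in homozygous than in control libraries. Acp5 encodes tartrate-resistant acid phosphatase, the enzyme stained to identify osteoclasts. Acp5 had 10.1, 10.8 and 10.2 CPM in homozygous untreated libraries and 21.2, 44.4 and 34.0 CPM in control untreated libraries. Every control library lay above the highest homozygous library, and the control libraries spread more widely. The log2 change was -1.52 ± 0.24 (SE, adjusted p = 0.00107). This call was kept in each of 18 alternatives.

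Mmp9 encodes a gelatinase that cuts denatured collagen. It had 765, 716 and 937 CPM in homozygous untreated libraries and 1084, 1713 and 1358 CPM in control untreated libraries. The groups did not overlap, and the log2 change was -0.63 ± 0.15 (SE, adjusted p = 0.0168). The call was lost without homozygous untreated 1 (adjusted p = 0.0727), homozygous untreated 2 (0.0888) or control untreated 2 (0.0604), and with only the 6 untreated libraries fitted (0.0634).

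The acid secretion genes did not pass the test in this comparison. Tcirg1 had 92.4, 86.4 and 118 CPM in homozygous untreated libraries and 112, 172 and 155 CPM in control untreated libraries (log2 change -0.42, adjusted p = 0.137). Clcn7, the chloride-proton exchanger that accompanies proton pumping, had 41.5, 36.6 and 59.9 CPM in homozygous untreated libraries and 35.4, 84.4 and 64.2 CPM in control untreated libraries (log2 change -0.26, adjusted p = 0.482). Ostm1, the beta subunit of CLC-7, had 134, 161 and 139 CPM in homozygous untreated libraries and 141, 142 and 127 CPM in control untreated libraries (log2 change 0.23, adjusted p = 0.204). In each of these 3 genes the groups overlapped. Without control untreated 1, the Tcirg1 difference was called (log2 change -0.55, adjusted p = 0.0381), as it was with limma-voom (adjusted p = 0.0432). Of the 7 tested genes, 2 fell and 0 rose, where 8.13% of all 15674 tested genes fell and 6.69% rose (14.8% called in all). The median log2 change over all tested genes was -0.04.

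**Figure D3:**
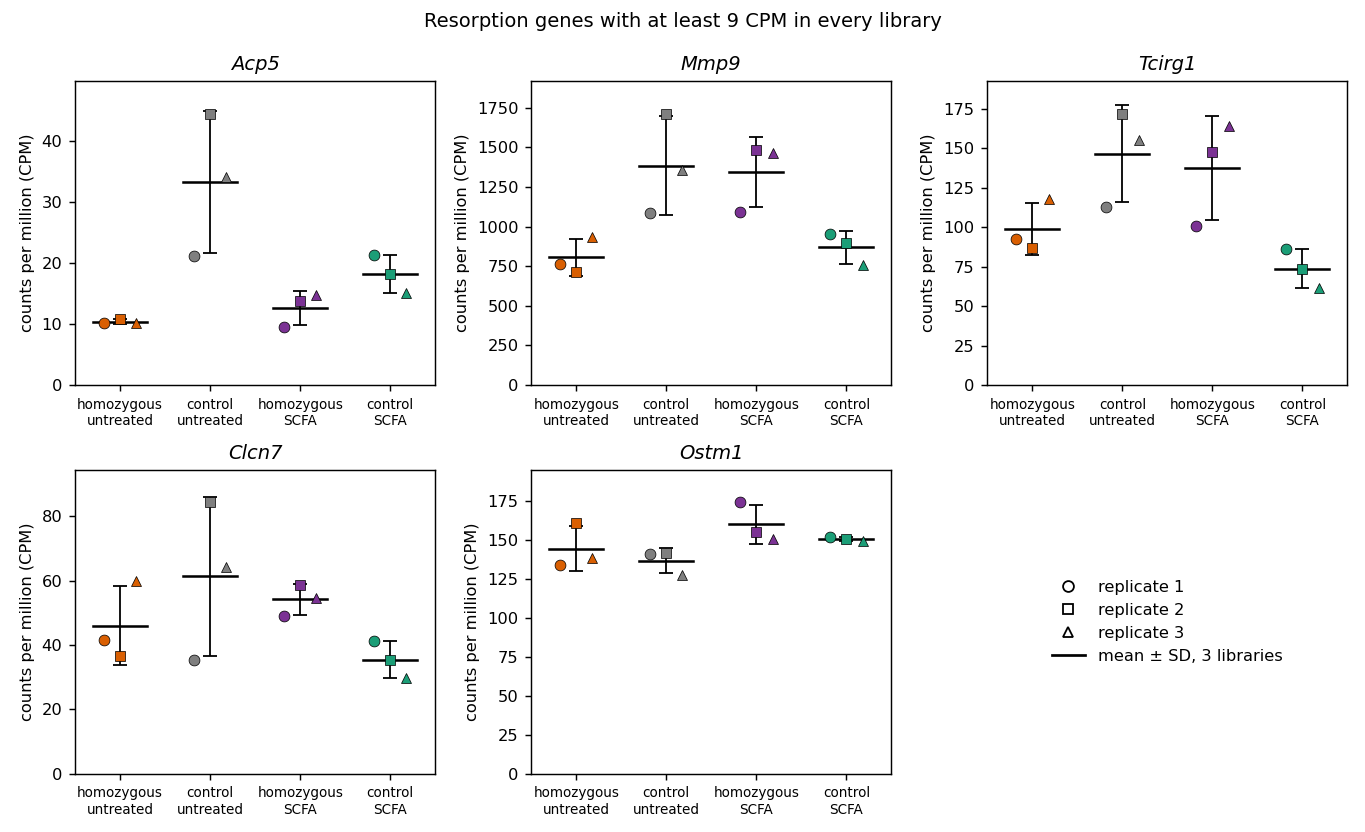
CPM per library of the 5 genes with at least 9 CPM in every library, by group, with symbols for the 3 replicates and lines for mean ± SD (n = 3). Acp5 is at 10.1 to 10.8 CPM in the homozygous untreated libraries, and Mmp9 and Tcirg1 are higher in homozygous SCFA than in control SCFA libraries.

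Under SCFA, Mmp9 and Tcirg1 were higher in homozygous than in control libraries. Mmp9 had 1090, 1480 and 1462 CPM in homozygous SCFA libraries and 954, 894 and 755 CPM in control SCFA libraries. The groups did not overlap, and the log2 change was 0.65 ± 0.15 (SE, adjusted p = 0.0101). The call was lost without control SCFA 3 (adjusted p = 0.0544) or homozygous SCFA 3 (0.0505).

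Tcirg1 encodes the pump subunit whose loss causes osteopetrosis in mice and humans. It had 100.5, 147 and 164 CPM in homozygous SCFA libraries and 86.0, 73.2 and 61.4 CPM in control SCFA libraries. The groups did not overlap, and the log2 change was 0.92 ± 0.19 (SE, adjusted p = 0.00419), a call kept in each of 18 alternatives. Clcn7 had 49.0, 58.8 and 54.7 CPM in homozygous SCFA libraries and 41.3, 35.4 and 29.7 CPM in control SCFA libraries, again without overlap, but it did not pass the test (log2 change 0.63, adjusted p = 0.0865). Clcn7 was called here with no filter on low counts (adjusted p = 0.00317), limma-voom (0.0117) or only the SCFA libraries (0.00781), and without control untreated 1 (0.0194) or control untreated 2 (0.0370).

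Acp5 had 9.44, 13.8 and 14.7 CPM in homozygous SCFA libraries and 21.3, 18.2 and 15.1 CPM in control SCFA libraries. Every homozygous library was lower, but the difference did not pass the test (log2 change -0.51, adjusted p = 0.150). Ostm1 had 174, 156 and 151 CPM in homozygous SCFA libraries and 152, 151 and 149 CPM in control SCFA libraries, which overlap (log2 change 0.10, adjusted p = 0.6). Of the 7 tested genes, 2 rose and 0 fell, where 8.89% of all tested genes rose and 8.47% fell (17.4% in all).

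SCFA treatment was set against no treatment within each genotype. In homozygous mice Mmp9 rose, with log2 change 0.71 ± 0.15 (SE, adjusted p = 0.00964), and its SCFA libraries lay above its untreated libraries. The call was lost without homozygous untreated 2 (adjusted p = 0.0543). Tcirg1 had a log2 change of 0.45 (adjusted p = 0.146) and Acp5 of 0.25 (adjusted p = 0.569). Of the 7 tested genes, 1 rose and 0 fell, where 3.96% of all tested genes rose and 5.61% fell (9.58% in all).

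In control mice Acp5, Mmp9 and Tcirg1 fell with SCFA. The log2 changes were -0.75 ± 0.23 for Acp5 (adjusted p = 0.0326), -0.56 ± 0.15 for Mmp9 (adjusted p = 0.0200) and -0.88 ± 0.19 for Tcirg1 (adjusted p = 0.00784). The SCFA libraries lay below the untreated libraries for Mmp9 and Tcirg1, and overlapped them for Acp5. Clcn7 had a log2 change of -0.67 (adjusted p = 0.0571), and of -0.93 without control untreated 1, which was called (adjusted p = 0.00262), as it was with no filter (0.00152), DESeq2 (0.0345) or limma-voom (0.0129). Ostm1 had 152, 151 and 149 CPM in control SCFA libraries, all above the 141, 142 and 127 CPM of control untreated libraries, but did not pass (log2 change 0.24, adjusted p = 0.157); limma-voom called it (0.0356). Of the 7 tested genes, 3 fell and 0 rose, where 13% of all tested genes fell and 8.89% rose (21.9% in all).

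The Acp5 call was lost without control untreated 2 (adjusted p = 0.137), control untreated 3 (0.0725), control SCFA 2 (0.0837) or control SCFA 3 (0.133), and with only the libraries compared (0.0735). The Mmp9 call was lost without control untreated 2 (adjusted p = 0.0651), control SCFA 2 (0.0534) or control SCFA 3 (0.1), and with only the libraries compared (0.0525). The Tcirg1 call was lost without control SCFA 3 (adjusted p = 0.0512).

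The genotype difference under SCFA minus that without was itself tested. It was 1.28 ± 0.22 for Mmp9 (SE, adjusted p = 0.00181) and 1.33 ± 0.26 for Tcirg1 (adjusted p = 0.00391) on the log2 scale, and both calls were kept in each of 17 alternatives. For Acp5 it was 1.01 ± 0.33 (adjusted p = 0.0379), a call lost in 10 of 17 alternatives. These were the replicate block and the fits without any 1 library other than control untreated 1, control SCFA 1 and homozygous SCFA 1, with adjusted p from 0.0512 to 0.0993. Clcn7 had 0.89 (adjusted p = 0.0677) and was called in 5 of 17 alternatives, among them without control untreated 1 (1.15, adjusted p = 0.00393) or homozygous untreated 3 (adjusted p = 0.0344). Ostm1 had -0.12 (adjusted p = 0.627), Ctsk -1.53 (adjusted p = 0.216) and Atp6v0d2 -0.08 (adjusted p = 0.961). Of the 7 tested genes, 3 rose and 0 fell, where 13.6% of all tested genes rose and 11.6% fell (25.1% in all).

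**Figure D4:**
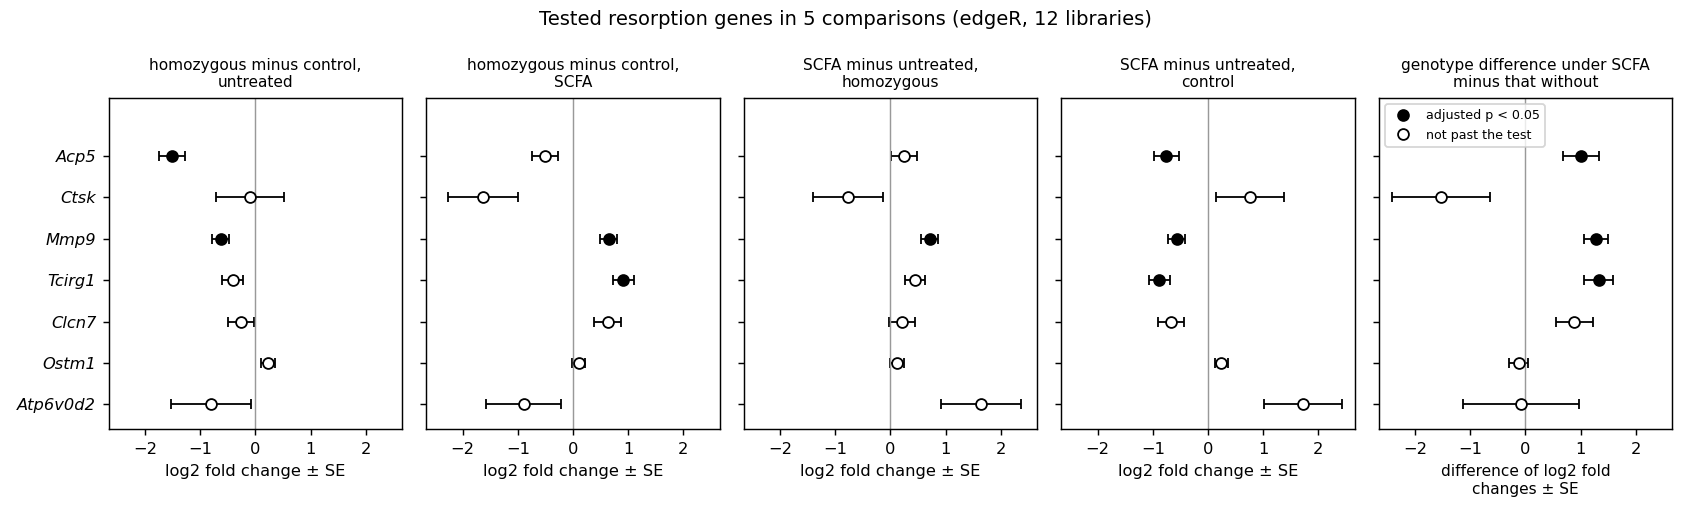
Log2 fold change with its SE for the 7 tested genes in 5 comparisons (edgeR, 12 libraries), filled where the adjusted p is under 0.05. Mmp9 is filled in every panel, with negative values for homozygous minus control without SCFA (-0.63) and for SCFA in control mice (-0.56), and positive values in the other 3.

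The order of group means differed between genes. Mmp9 and Tcirg1 were highest in control untreated libraries, at 1385 ± 315 and 146 ± 30.6 CPM (SD, n = 3), followed by homozygous SCFA libraries at 1344 ± 221 and 137 ± 33.0 CPM; these neighbours overlap. Homozygous untreated libraries had 806 ± 116 CPM of Mmp9 and 98.8 ± 16.5 CPM of Tcirg1. Control SCFA libraries had 868 ± 102 and 73.5 ± 12.3 CPM, and for Mmp9 these overlap the homozygous untreated libraries. Acp5 was highest in control untreated libraries at 33.2 ± 11.7 CPM, with 18.2 ± 3.07 in control SCFA, 12.6 ± 2.79 in homozygous SCFA and 10.4 ± 0.388 in homozygous untreated libraries. Group means of Ostm1 ran from 137 to 160.2 CPM, and each group overlapped the next in this order.

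Mmp9, Tcirg1, Clcn7 and Acp5 shared their lowest library in 3 of the 4 groups. Control untreated 1, homozygous SCFA 1 and control SCFA 3 were each the lowest library of their group for all of these genes, and for Padi4, the gene nearest to Mmp9 in pattern. Pearson correlations over the 12 libraries used log2 CPM scaled by the normalization factors of the test. They were 0.873 between Mmp9 and Tcirg1, 0.861 between Tcirg1 and Clcn7 and 0.770 between Mmp9 and Clcn7. Between Acp5 and Mmp9 the correlation was 0.464. These are descriptions of libraries that share groups and library preparation.

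**Figure D5:**
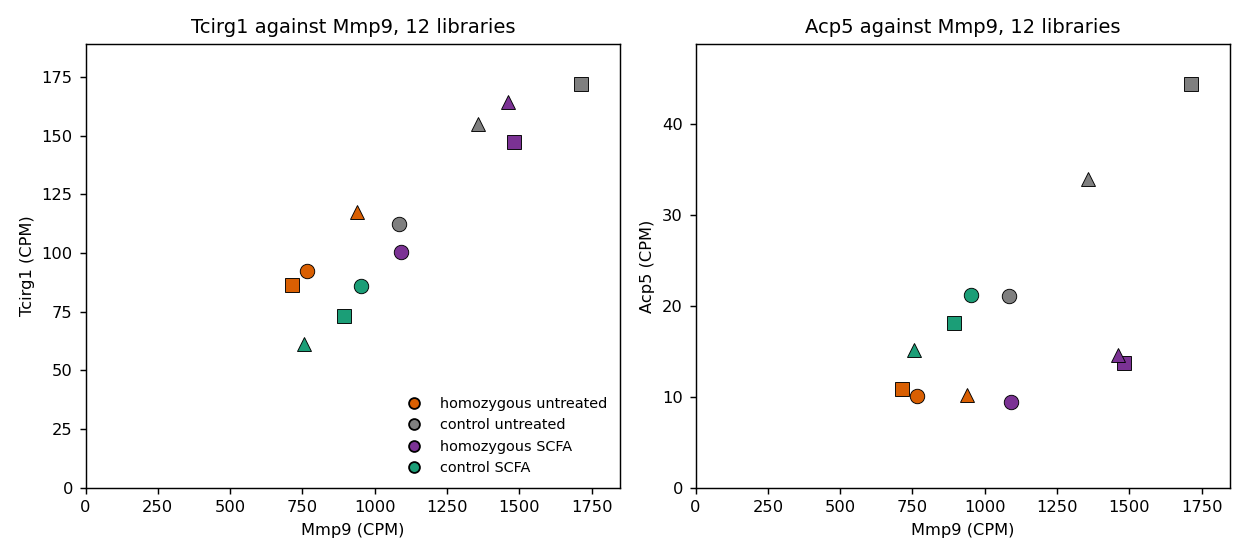
CPM of Tcirg1 (left) and Acp5 (right) against Mmp9, 1 point per library, coloured by group, with circles, squares and triangles for replicates 1, 2 and 3. Tcirg1 is high in most libraries where Mmp9 is high (r = 0.873 on log2 CPM scaled by the normalization factors of the test). At overlapping Mmp9, however, the homozygous untreated libraries have more Tcirg1 than the control SCFA libraries. Acp5 stays at or below 14.7 CPM in homozygous SCFA libraries that have 1090 to 1480 CPM of Mmp9.

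The genes most like each in their pattern over the 12 libraries were searched among those with a mean of at least 5 CPM. Nearest to Mmp9 were Padi4 (r = 0.993), Cyth4 (0.988) and Ctsd (0.988), and nearest to Tcirg1 were Tkt (0.987), Twf2 (0.986) and Tpst2 (0.986). Acp5 lay nearest to Map4k1 (0.966), Cyth1 (0.962) and Wdfy4 (0.962), and Clcn7 to Hk1 (0.960), Tnfaip2 (0.958) and Dcaf5 (0.954). The r of the nearest gene was 0.928 for Ostm1, 0.912 for Atp6v0d2 and 0.885 for Ctsk.

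Markers of other cells also differed between the groups. For comparison, 6.69% of all tested genes rose and 8.13% fell by genotype without SCFA, and 8.89% rose and 8.47% fell under SCFA. With SCFA, 3.96% rose and 5.61% fell in homozygous mice, and 8.89% rose and 13% fell in control mice. Of the 13 late neutrophil markers, 3 rose and 2 fell by genotype without SCFA, with a median log2 change of 0.03. Their summed level, given above and weighted to the most abundant genes, was higher in 2 of the 3 homozygous untreated libraries than in any control untreated library. S100a9, an abundant calcium-binding protein of neutrophils, rose there (log2 change 0.71, adjusted p = 0.00646). Padi4, a histone-modifying enzyme of maturing neutrophils that is in this list and was singled out as the gene nearest to Mmp9 in pattern, fell (log2 change -0.68, adjusted p = 0.0190). The other marker of the list that fell was Csf3r (log2 change -0.54, adjusted p = 0.0396). Of the 13, 7 rose and 0 fell by genotype under SCFA, 2 rose and 0 fell with SCFA in homozygous mice, and 4 rose and 6 fell with SCFA in control mice.

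Of the 5 neutrophil precursor markers, 1 rose and 0 fell by genotype without SCFA and 4 rose and 0 fell under SCFA, with sums of 2483 to 3464 CPM in homozygous SCFA against 1704 to 2199.8 in control SCFA libraries; 3 fell and 0 rose with SCFA in control mice. Of the 8 monocyte markers, 6 rose and 0 fell by genotype without SCFA, with sums of 5951 to 6083 CPM in homozygous untreated against 3674 to 4449 in control untreated libraries, and 3 rose and 0 fell under SCFA, with 5765 to 6460.5 CPM in homozygous SCFA against 4712 to 5112 in control SCFA libraries. Of the 12 macrophage markers, 2 rose and 3 fell by genotype without SCFA, 4 rose and 0 fell under SCFA, 4 rose and 1 fell with SCFA in homozygous mice, and 5 rose and 0 fell with SCFA in control mice.

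Most called markers of B, erythroid and plasmacytoid dendritic cells were lower in homozygous libraries under SCFA. Of the 10 B lineage markers, 9 fell without SCFA and 10 under SCFA, with sums of 496 to 550 CPM in homozygous untreated against 1589 to 1682 in control untreated, and 142 to 158 in homozygous SCFA against 1510 to 1519 in control SCFA libraries. Of the 9 erythroid markers, 1 rose and 4 fell without SCFA and 2 rose and 6 fell under SCFA, with sums of 8196 to 10862 CPM in homozygous untreated against 18789 to 20220.1 in control untreated, and 2164 to 2630.4 in homozygous SCFA against 11104 to 12636 in control SCFA libraries. Of the 6 plasmacytoid dendritic cell markers, 1 rose and 0 fell without SCFA and 5 fell and 0 rose under SCFA, with 134 to 166 CPM in homozygous SCFA against 377 to 407 in control SCFA libraries. Megakaryocyte markers rose in 3 of 6 under SCFA, and eosinophil, basophil and mast cell markers in 5 of 8 without SCFA and 3 of 8 under SCFA, with 0 falling in each. The 10 osteoblast and stroma markers summed to 5.48 to 54.7 CPM in control untreated libraries. They summed to at most 6.78 CPM in homozygous untreated, 4.59 in homozygous SCFA and 7.71 in control SCFA libraries. Among them, Col1a1 had 1.17, 1.71 and 19.7 CPM and Col1a2 0, 0 and 16.3 CPM in control untreated 1, 2 and 3. No marker of these lists was at 0 in all libraries, and the part of these markers in the results for the resorption genes was not tested.

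Other genes of the resorption machinery were called in part, against a median log2 change over all tested genes between -0.04 and 0.04 in the 4 comparisons of groups. Over all tested genes, 14.8% were called by genotype without SCFA, 17.4% under SCFA, 9.58% with SCFA in homozygous mice and 21.9% in control mice. The counts of this list and the lists that follow are to be read against these shares. Of 17 tested other V-ATPase subunits, 4 rose and 0 fell by genotype without SCFA, and 2 rose and 1 fell under SCFA, with median log2 changes of 0.15 in both. With SCFA, 2 rose and 0 fell in homozygous mice and 4 rose and 2 fell in control mice. Atp6v0c and Atp6v0b, subunits of the membrane-embedded rotor, rose by genotype under SCFA (log2 changes 0.83 and 0.69, adjusted p = 0.00511 and 0.00668), as Tcirg1 did. Atp6v0d1 was called in no comparison. Of 14 other acid and vesicle transport genes, 3 rose and 4 fell without SCFA, and 2 rose and 1 fell under SCFA. With SCFA, 1 rose and 2 fell in homozygous mice and 2 rose and 3 fell in control mice. Car2, the carbonic anhydrase that supplies protons to the pump, fell with SCFA in homozygous mice (log2 change -1.09, adjusted p = 1.44e-05) and in control mice (-1.27, adjusted p = 5.23e-05). Of the 9 erythroid markers, 1 rose and 7 fell with SCFA in homozygous mice, and 0 rose and 4 fell in control mice. A link between these falls and that of Car2 was not tested.

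Of 17 other cathepsins and matrix metalloproteinases, 3 rose and 2 fell by genotype without SCFA (median log2 change 0.04), and 9 rose and 0 fell under SCFA (median 0.43); the difference between these counts was not tested. With SCFA, 2 rose and 0 fell in homozygous mice and 2 rose and 4 fell in control mice. Ctsd, the lysosomal aspartic protease cathepsin D, had log2 changes of -0.61 without SCFA (adjusted p = 0.0268) and 0.85 under SCFA (adjusted p = 0.00301). Mmp8 rose by genotype both without SCFA (0.62, adjusted p = 0.00222) and under it (0.39, adjusted p = 0.0220), and Ctss likewise (0.79, adjusted p = 0.0108, and 0.61, adjusted p = 0.0260). Without SCFA, Mmp8 and Mmp9 thus moved in opposite directions.

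Upstream of these genes, Tnfrsf11a, which encodes RANK, rose by genotype without SCFA, with 30.1, 18.9 and 27.3 CPM in homozygous untreated and 10.49, 16.4 and 15.5 CPM in control untreated libraries (log2 change 1.00, adjusted p = 0.00496). Nfatc1 fell in the same comparison, with 78.1, 97.4 and 92.2 CPM in homozygous untreated and 128, 174 and 156 CPM in control untreated libraries (log2 change -0.62, adjusted p = 0.00623). Neither gene's groups overlapped. Under SCFA the genotype difference did not pass for Tnfrsf11a (0.18, adjusted p = 0.566) or Nfatc1 (0.07, adjusted p = 0.739). With SCFA in control mice Tnfrsf11a rose (1.15, adjusted p = 0.00431). Csf1r, the M-CSF receptor, rose by genotype under SCFA (0.96, adjusted p = 0.00125). Of 10 tested receptors and adaptors, 2 rose and 3 fell by genotype without SCFA, and 3 rose and 3 fell under SCFA. Those that fell without SCFA were Syk and Plcg2, which relay immunoreceptor signals (-0.74, adjusted p = 0.00795, and -0.60, adjusted p = 0.0377), and Trem2, a myeloid receptor (-0.73, adjusted p = 0.0259). With SCFA, 3 rose and 0 fell in homozygous mice, and 3 rose and 2 fell in control mice.

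Of 20 tested osteoclast transcription factors and repressors, 1 rose and 12 fell by genotype without SCFA (median log2 change -0.61), and 7 rose and 0 fell under SCFA (median 0.34). With SCFA, 8 rose and 0 fell in homozygous mice, and 2 rose and 9 fell in control mice. Among 11 other fusion genes, 1 rose and 2 fell by genotype without SCFA, and 4 rose and 0 fell under SCFA. With SCFA, 4 rose and 0 fell in homozygous mice, and 1 rose and 3 fell in control mice. Itgb3, the integrin beta 3 chain by which osteoclasts grip bone, rose with SCFA in homozygous mice (1.06, adjusted p = 0.000105). Of the 6 megakaryocyte markers, 3 rose and 0 fell in that comparison, with a median log2 change of 1.24. A link between these markers and Itgb3 was not tested. Cd9, a tetraspanin that takes part in cell fusion, rose by genotype under SCFA (0.86, adjusted p = 0.000253) and fell without it (-0.40, adjusted p = 0.0399). With SCFA in control mice Cd9 (-0.64, adjusted p = 0.00598) and the tetraspanin Cd81 (-0.84, adjusted p = 0.00719) fell.

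All 10 genes are protein-coding in the GENCODE M21 annotation of mm10. The genes whose values passed a test are Acp5 at chr9:22126727-22135711 on the minus strand, Mmp9 at chr2:164940780-164955850 on the plus strand and Tcirg1 at chr19:3896050-3907133 on the minus strand. Acp5 shares 137 exon bases with the antisense gene 6530413G14Rik, which had 0 to 8 counts per library, and Ostm1 shares 410 with Gm15200, which had 0 in all. Without a stated strand setting, reads of overlapping genes cannot be told apart.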

How the data were processed

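The authors deposited raw counts for each gene symbol, as whole numbers. The submitters' processing notes name STAR, featureCounts and mm10; for their versions, the annotation and the strand setting, the sources used here give nothing. Per the labels, RNA was purified with RNeasy Plus Micro columns and amplified by a Clontech low-input poly(A) method. CPM was computed here from library totals, and per kilobase with union exons of GENCODE M21, which held 96.4% of symbols.

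The test was the quasi-likelihood F test of edgeR 4.0.16 (R 4.3.3) with TMM normalization. After filterByExpr, 15674 genes were fitted with 4 group means over 12 libraries, with Benjamini-Hochberg adjusted p under 0.05 over all genes as a call. The 18 alternatives (17 for the interaction) were RLE factors, no filter, DESeq2 1.42.0, limma-voom (limma 3.58.1), only the libraries compared, the replicate number as a block and each library left out. Throughout, limma-voom was run with quality weights, which give outlying libraries less weight. Correlations and likeness used log2 CPM scaled by the TMM factors, with a prior count of 2. Likeness left out unnamed gene models and receptor segments. Replicates of a group differed by more than sampling noise (chi-square per degree of freedom 11.6 to 84.8). The procedure was tested on simulated data with changes put into the homozygous untreated libraries. It called 2 of 50 genes changed 1.5-fold, 52 of 100 changed 2-fold and 44 of 50 changed 4-fold. Of its 104 calls, 6 were of genes left unchanged. Only genes above a minimum mean count had been changed. In a separate simulation with no gene changed, 0 genes were called. Changes of 2-fold or less can thus often be missed, and some of 4-fold were missed too.

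The genes and lists were chosen with earlier results of these data known. The rule named all 10 genes, for each other list the 2 called genes with the smallest p per comparison, and Tnfrsf11a, Csf1r, Nfatc1, Tnfsf11, Itgb3, Car2, Atp6v0d1, Ctss, Ctsl and Mmp8. Only some of the genes it names are given, and these were picked with their values in view. Python 3.11.15, pandas 2.3.3 and matplotlib 3.10.9 made tables and figures.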

Additional observations from a re-analysis of the deposited data

Results flagged for a closer look

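The genotype difference under SCFA differed from that without SCFA (edgeR, interaction, adjusted p under 0.05) for these selected genes, given as log2 differences. Among the resorption genes they were Acp5 at 1.01, Mmp9 at 1.28 and Tcirg1 at 1.33. Among receptors and adaptors they were Csf1r at 1.21 and Trem2 at 1.54, Syk at 0.75 and Plcg2 at 1.06, with Tnfrsf11a at -0.82. The transcription factors Nfatc1, Fos and Junb had 0.69, 1.18 and 1.73. The fusion genes Itgb3, Cd9, Adam8 and Cd81 had 0.80, 1.27, 1.46 and 0.90. Of the acid and vesicle genes, Atp6v0b had 1.14, Atp6v0c 1.23 and Rab3d 1.23, with Clcn5 at -1.03. The proteases Ctsa and Ctsd had 1.30 and 1.46, and the neutrophil markers Padi4 and S100a9 had 1.46 and -0.72. The lists held further calls, and 25.1% of all tested genes were called. Among 20 tested transcription factors and repressors 11 rose and 0 fell, and among 10 receptors and adaptors 5 rose and 3 fell. Among 17 other V-ATPase subunits 4 rose and 3 fell, and among 13 late neutrophil markers 7 rose and 1 fell. Of the 10 B lineage markers, 0 rose and 10 fell.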

How the results depend on the processing

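The 7 tested resorption genes gave 2 calls by genotype without SCFA, 2 by genotype under SCFA, 1 for SCFA in homozygous mice, 3 for SCFA in control mice and 3 for the interaction, out of 2323, 2722, 1501, 3432 and 3938 calls over all genes. With limma-voom the resorption calls were 4 by genotype under SCFA, 2 for SCFA in homozygous mice and 5 for SCFA in control mice, and the calls over all genes 3922 by genotype without SCFA, 4762 under SCFA, 2988 for SCFA in homozygous mice and 5064 for SCFA in control mice. DESeq2 called 2276 genes for SCFA in homozygous mice. With only the libraries compared, resorption calls were 1 by genotype without SCFA and 1 for SCFA in control mice, of 827 and 1844 genes. Leaving out 1 library in turn gave 1 to 3, 1 to 3, 0 to 1, 0 to 5 and 2 to 4 resorption calls in the order above, and 823 to 4454, 1453 to 3351, 758 to 2092, 690 to 5269 and 2540 to 5538 calls over all genes. The cause was not tested.

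With the replicate number as a block, 2067, 2447, 1282, 3249 and 3715 genes were called; same-numbered libraries shared only a number, with correlations of their deviations from -0.114 to 0.108 and 4 of 12 libraries correlating best with their own number. Among resorption genes the block gave 2, 2, 1, 3 and 2 calls; the Acp5 interaction was not called (adjusted p = 0.0512).

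Direction reversed only for values that were not calls: the log2 change of Ctsk by genotype without SCFA, from -0.69 to 0.17 over the fits with 1 library left out, and the interaction of Atp6v0d2, from -0.71 to 0.52 over those fits and 0.12 with limma-voom. Of the 420 values for single genes with 1 library left out, 380 kept direction and side of the threshold, as did 185 of 203 under the other alternatives. The same 3 genes were barely expressed at a limit of 0.5 or 2 CPM. Low counts limit Ctsk and Atp6v0d2, and 3 libraries a group limit all.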

Other observations

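Of 10 osteoclast ligands and decoys, 4 had enough counts to be tested. Tnfsf11, which encodes RANKL, was not among those tested. It summed to 15 counts in homozygous untreated and 18 in control untreated libraries. Under SCFA it summed to 4 in homozygous and 3 in control libraries. Most of its untreated counts came from single libraries. Levels were 0, 0 and 0.747 CPM in homozygous untreated and 0.175, 0.885 and 0 CPM in control untreated libraries. Il1b, a cytokine that promotes resorption, had 443, 499.9 and 471 CPM in homozygous SCFA libraries and 325, 335 and 339 CPM in control SCFA libraries (edgeR, log2 change 0.51, adjusted p = 0.00310). It also rose with SCFA, by log2 changes of 0.72 in homozygous mice (adjusted p = 0.000319) and 0.44 in control mice (adjusted p = 0.0105). Il17a had 0 counts in all 12 libraries.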
